A study of Homo sapiens with 5 samples.

Results

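Interferon-stimulated genes were examined in TF-1 cells with and without *MTSS1*, a gene whose protein links the actin cytoskeleton to the cell membrane. The genes were taken from a list of 35 symbols that holds regulators, sensors, and effectors of the interferon response, and were found by symbol among the Ensembl genes of the count table. Of the 35 listed genes, 33 were found among the 27328 genes counted. *DDX58* is annotated under its newer symbol *RIGI* (ENSG00000107201). *OAS2* and *MX2* were not analysed here.

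TF-1 cells are a human line of AML origin with features of erythroid and myeloid progenitors. All libraries came from TF-1 cells transduced with a lentiviral vector that carries Cas9, GFP, and an sgRNA, so that control and knockout cells share the virus and the nuclease. The 2 control libraries (control pools 1 and 2) carry sgCtrl, which targets the *Renilla luciferase* gene, and the 3 *MTSS1* knockout libraries carry sgMTSS1_1, sgMTSS1_2, or sgMTSS1_3. Each library is a pool of 4 single-cell clones, and the sources used here name no treatment with interferon. A replicate is therefore a pool of clones from 1 line, and in the knockout group the sgRNA differs between replicates.

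Total counts were 2849979 and 3408827 in the control pools and between 5442639 and 8854899 in the knockout pools, the deepest of which was sgMTSS1_1. Depth and condition therefore cannot be told apart. The *MTSS1* mRNA level was 203 and 87.4 CPM with sgCtrl, and 103, 138, and 49.7 CPM with sgMTSS1_1 to sgMTSS1_3. The groups overlapped, so that the mRNA level does not check the labels. In the study, loss of the protein was seen by immunoblot. CPM stands for counts after division by library totals that were adjusted with edgeR's TMM factors. All 14 markers of TF-1 cells had at least 3 counts in every library, with a summed level of 1968 to 2886 CPM. Of the 3 monocyte or macrophage markers found, 1 had at least 3 counts in every library. There were 2 with fewer than 10 counts in every library, among them *CD14* with at most 1 count. The 3 together reached 2.17 to 5.63 CPM. The 6 T or B lymphocyte markers found summed to 19.5 and 21.6 CPM in the control and 9.87 to 16.8 CPM in the knockout pools. The plasmacytoid dendritic cell list was at 72.5 to 114 CPM through *TCF4* alone, since *GZMB* had at most 3 counts. The fibroblast or epithelial list was at 53.7 and 110 CPM in control and 134 to 138 CPM in knockout pools through *KRT18*, while *COL1A1*, *COL1A2*, *DCN*, and *EPCAM* had at most 4 counts. Their part in the results below was not tested.

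Interferons are secreted proteins that cells release on contact with viruses and other microbes. Type I interferons bind a receptor of IFNAR1 and IFNAR2 chains, and interferon gamma binds one of IFNGR1 and IFNGR2 chains. The kinases JAK1, TYK2, and JAK2 at these receptors phosphorylate STAT proteins. A complex that holds STAT2 and IRF9 binds a DNA sequence named the interferon-stimulated response element (ISRE), and a further element of interferon targets is the gamma-activated site (GAS). Many of the induced genes are also kept at a low level without added interferon.

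The cores of both elements were searched on both strands of RefSeq promoter windows (GRCh38.p14) that reach from 250 bases before to 50 bases after the start site. The ISRE core was taken as GAAANNGAAA and the GAS core as TTCNNNGAA, and the 2 may overlap. A window was found for 26 of the 35 listed genes. *IRF3*, *IRF7*, *IFIT2*, *IFITM2*, *OAS2*, *OASL*, *USP18*, *MX2*, and *TRIM22* have none in the table used. An ISRE core was present for 18 of the 26 genes (69.2%), against 4.38% of all 27305 genes with a window. A GAS core was present for 8 of the 26 (30.8%), against 9.38% of all. The windows below are shown for the genes whose levels differed most clearly between the groups (*BST2*, *IRF1*, *IFITM1*, *IFITM3*) and, beside them, for *ISG15* and *IFIT1*, a pair of the best known interferon targets. They are written 5′ to 3′ on the gene's own strand and end at or before the base next to the start site. Capitals mark ISRE cores, and in *IRF1*, which has no ISRE core in its window, they mark the GAS core.
BST2, chr19:17405720-17405785, minus strand: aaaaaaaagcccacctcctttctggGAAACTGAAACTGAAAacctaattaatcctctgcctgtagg
IRF1, chr5:132490864-132490922, minus strand: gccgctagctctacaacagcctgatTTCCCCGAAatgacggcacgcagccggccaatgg
IFITM1, chr11:313975-314034, plus strand: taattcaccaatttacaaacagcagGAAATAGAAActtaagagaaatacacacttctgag
IFITM3, chr11:320861-320937, minus strand: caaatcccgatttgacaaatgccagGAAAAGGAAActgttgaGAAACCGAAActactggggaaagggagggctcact
ISG15, chr1:1013359-1013424, plus strand: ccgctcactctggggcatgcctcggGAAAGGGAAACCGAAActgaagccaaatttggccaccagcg
IFIT1, chr10:89392482-89392554, plus strand: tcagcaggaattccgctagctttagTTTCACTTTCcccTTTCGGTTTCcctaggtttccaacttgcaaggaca
In *BST2* and *ISG15*, 2 ISRE cores overlap, so that 3 copies of GAAA follow one another at a spacing of 2 bases. In *IFIT1*, both cores lie on the opposite strand. A match is a description of the letters and not a measured binding site.

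The interferon-stimulated genes covered a wide range of levels. Removal of genes with low counts (edgeR's filterByExpr with a minimum count of 10) kept 23 of the 33, beside 14391 of all 27328 genes, and 10 were removed: *IFIT5*, *OAS1*, *OAS3*, *OASL*, *MX1*, *RSAD2*, *ISG20*, *IFI27*, *IFI44L*, and *XAF1*. The median level of the 23 tested genes was 10.2 and 10.1 CPM in the control pools, beside 14.3 and 13.3 CPM over all tested genes. It was 15.99, 11.5, and 10.7 CPM in knockout pools 1 to 3, beside 15.1 to 15.3 CPM over all tested genes. The read is primed at the poly(A) tail, so that levels of different genes can be compared without correction for transcript length. *IFITM2*, *IFITM3*, and *BST2* had the highest means over the 5 libraries, followed by *SP100*, *IRF3*, and *ISG15*. Summed over the 33 genes, the level was 1079 and 745 CPM in the control pools and 1096, 1014, and 819 CPM in the knockout pools. Without *BST2*, *IFITM2*, and *IFITM3*, the sum was 250 and 235 CPM in control and 327, 244, and 235 CPM in knockout pools. The sums of the groups overlapped, and the sgMTSS1_1 pool was the highest in each case.

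**Figure D1:**
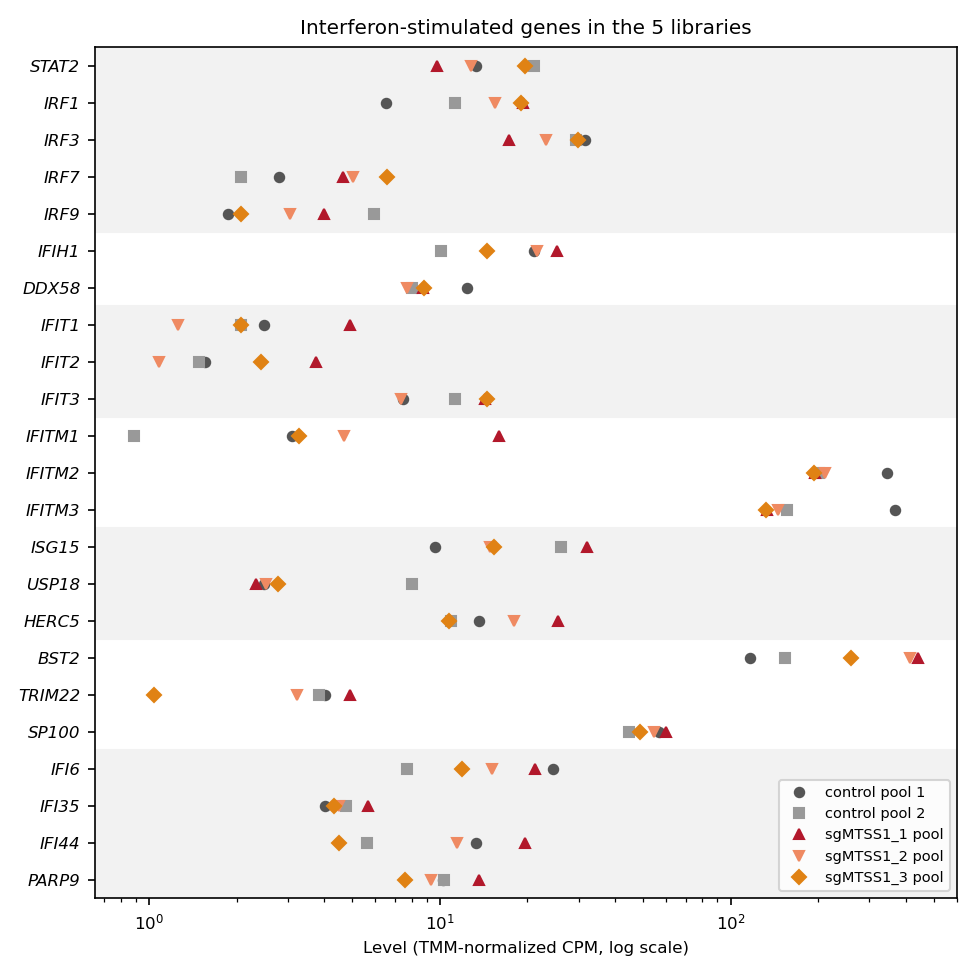
Level of the 23 tested interferon-stimulated genes in each library, in TMM-normalized CPM on a log scale, with 1 point per library and shaded bands for groups of genes with a shared role. *IFITM2*, *IFITM3*, and *BST2* lie above 100 CPM in every library, and *BST2* is the gene among them with all knockout pools above both control pools.

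To ask whether loss of *MTSS1* moved the interferon program, knockout and control pools were compared with edgeR's quasi-likelihood test. A gene was called when its Benjamini-Hochberg adjusted p over all tested genes was below 0.05 and its log2-fold change was above 1 or below −1. Of the 23 tested genes, 1 was called, *BST2*, which was higher in the knockout. Over all 14391 tested genes, 5.18% were called, 4.17% higher and 1.01% lower. An unadjusted p below 0.05 was reached by 5 of the 23 genes (*BST2*, *IRF1*, *IRF7*, *IFITM1*, *IFITM3*), beside 23.3% of all tested genes. The knockout pools all lay above both control pools in 4 of the 23 genes, beside 22.2% of all tested genes, and all below them in 1, beside 19.2%. In the other 18 genes, the groups overlapped. Neither share is above the background. The log2-fold change was positive for 14 of the 23 and negative for 9, with a median of 0.14, beside a median of −0.03 over all tested genes. It was between −0.5 and 0.5 for 15 of the 23.

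**Figure D2:**
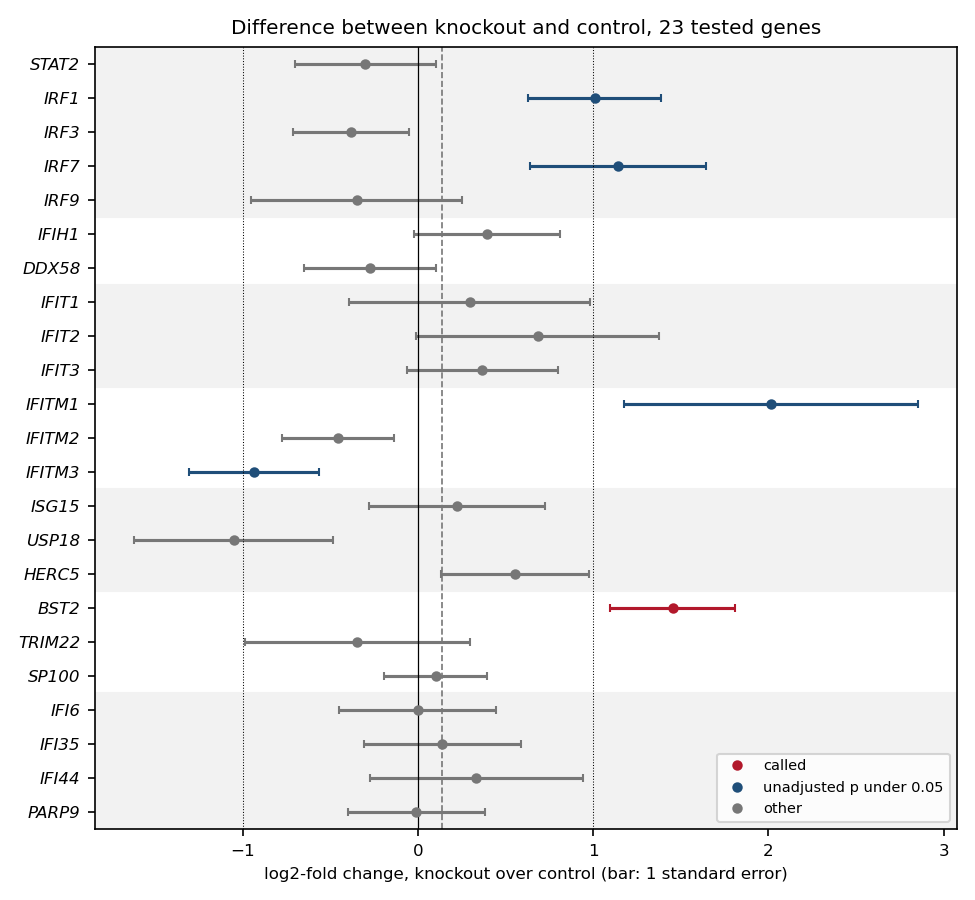
Log2-fold change between knockout (n = 3) and control (n = 2) pools for the 23 tested genes, with 1 standard error on either side. The dashed line is the median of the 23 genes (0.14), the dotted lines are the thresholds at −1 and 1, and *BST2* is the 1 gene called.

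*BST2* (tetherin, ENSG00000130303, chr19:17402939-17405630) encodes a membrane protein that holds budding virus particles at the cell surface. It stood at 116 and 154 CPM with sgCtrl and at 440, 413, and 259 CPM with sgMTSS1_1 to sgMTSS1_3. The groups did not overlap, and the sgMTSS1_3 pool was the lowest of the 3. The control mean was 135 ± 26.4 CPM (SD, n = 2) and the knockout mean 371 ± 97.8 CPM (SD, n = 3). On the log2 scale the fitted change was 1.46 ± 0.36 (standard error), or 2.74-fold, with an adjusted p of 0.0470 by edgeR. The value lies just under the threshold. After all libraries were thinned to the smallest total, the log2-fold change was 1.43 with an adjusted p of 0.0545. With RLE size factors in place of TMM it was 0.0536. With 1 library left out, it was 0.0783 without control pool 1, 0.133, 0.128, and 0.0842 without knockout pools 1, 2, and 3, and 0.0447 without control pool 2. The fold change stayed between 1.28 and 1.70 on the log2 scale under all 13 alternatives, of which 6 kept the call. No 50-base stretch in the last 300 bases of its transcript was shared with another gene.

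**Figure D3:**
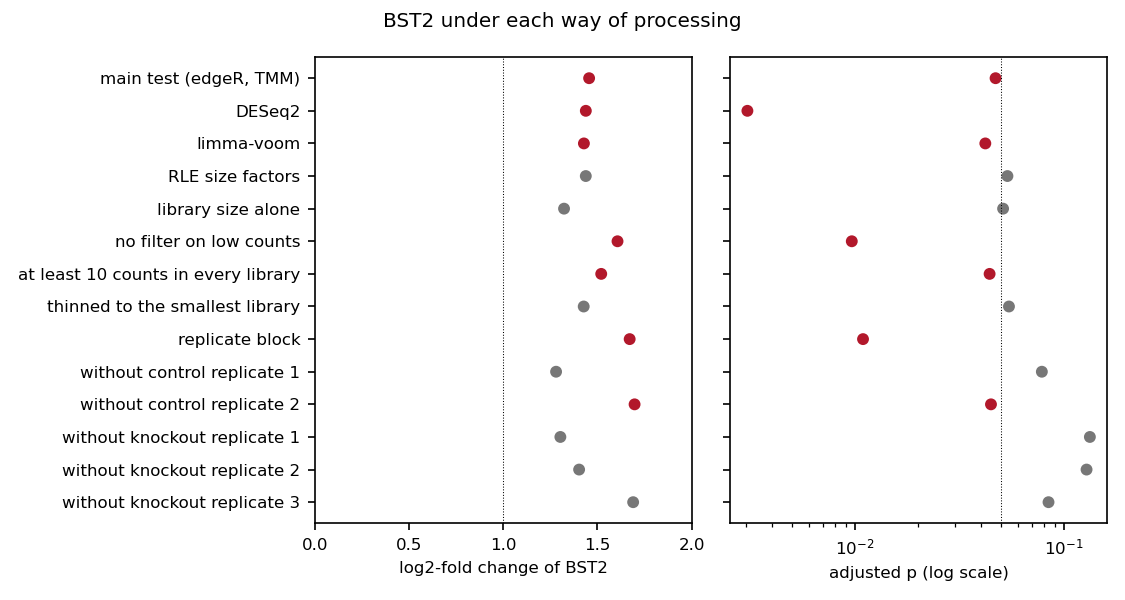
Log2-fold change of *BST2* (left) and its adjusted p on a log scale (right) in the main test and under 13 alternatives, with called values in red and the thresholds of 1 and 0.05 as dotted lines. The fold change moves little, while the adjusted p lies on either side of the threshold.

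Among the transcription factors of the list, *IRF1* and *IRF7* were higher in the knockout at an unadjusted p below 0.05 and did not pass adjustment. *IRF1*, whose protein activates interferon gamma targets and MHC class I genes, was at 6.52 and 11.3 CPM in the control pools and at 19.3, 15.4, and 19.0 CPM in the knockout pools. Values with ± beside a log2-fold change are standard errors. The groups did not overlap, and the log2-fold change was 1.01 ± 0.38 (adjusted p = 0.150). *IRF1-AS1* lies on the opposite strand of *IRF1*, and the sources used here do not say whether counting used strand. *IRF7*, the factor that drives type I interferon genes after infection, was at 2.79 and 2.07 CPM in control and at 4.64, 5.03, and 6.57 CPM in knockout pools. Here too all knockout pools were above both control pools, with a log2-fold change of 1.14 ± 0.50 (adjusted p = 0.206).

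The other 3 factors had overlapping groups. *IRF3*, which is present before infection and is activated by phosphorylation, was at 31.6 and 29.3 CPM in control and at 17.3, 23.2, and 29.9 CPM in knockout pools (log2-fold change −0.38 ± 0.33, adjusted p = 0.531). The sgMTSS1_3 pool lay between the control pools. *STAT2* and *IRF9*, both part of the complex that binds the ISRE, had log2-fold changes of −0.30 and −0.35. *IRF9* ranged from 1.86 to 5.92 CPM within the control group alone. The RNA sensors *IFIH1* (MDA5) and *DDX58* (RIG-I), which detect viral RNA in the cytoplasm, had log2-fold changes of 0.39 and −0.27, with adjusted p-values of 0.618 and 0.711.

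The IFITM proteins sit in membranes and hinder the fusion of viruses with the cell. *IFITM1* and *IFITM3* are neighbours on chromosome 11 and had log2-fold changes of opposite sign without either being called by the main test. *IFITM3* was at 367 and 156 CPM with sgCtrl and at 133, 146, and 132 CPM with sgMTSS1_1 to sgMTSS1_3. The knockout pools were the 3 lowest, yet the gap between the control pools was far larger than that between control pool 2 and the knockout pools. The log2-fold change was −0.93 ± 0.37 (adjusted p = 0.168). Without control pool 1 it was −0.18, and without control pool 2 it was −1.40 with an adjusted p of 0.0245, so that its size rests on control pool 1. *IFITM2* followed the same outline, with 346 and 201 CPM in control and 195, 211, and 193 CPM in knockout pools, but its groups overlapped (log2-fold change −0.45 ± 0.32, adjusted p = 0.430).

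*IFITM1* was at 3.10 and 0.888 CPM without editing of *MTSS1* and reached 15.99, 4.67, and 3.29 CPM in knockout pools 1 to 3 (sgMTSS1_1 to sgMTSS1_3). The sgMTSS1_1 pool stood far above the other libraries, and the sgMTSS1_3 pool was close to control pool 1. These levels rest on only 10 and 3 counts in control, and on 124, 26, and 19 counts in knockout pools. The log2-fold change was 2.01 ± 0.84 (adjusted p = 0.186), the largest of the 23 genes. Without the sgMTSS1_1 pool it was 0.98, and without control pool 1 it was 3.17. Of the 50-base stretches in the last 300 bases of *IFITM3*, 17.5% occur also in *IFITM1* transcripts and 9.56% in those of *IFITM2*. For *IFITM1* and *IFITM2*, 3.19% and 0.398% occur in *IFITM3*. Reads that align to more than 1 place were removed by the authors. The end of *IFITM1* is shared in full with ENSG00000288681, a gene model of GENCODE release 44, and whether the annotation used for counting held this model is not given in the sources used here. The same limit holds for *DDX58* (91.6% of stretches shared with ENSG00000288684), *USP18* (80.1% with ENSG00000288811), and *IRF9* (55.0% with ENSG00000259529).

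The IFIT proteins bind viral RNA through its cap or its end. *IFIT1*, *IFIT2*, and *IFIT3* had log2-fold changes of 0.30, 0.68, and 0.37, with adjusted p-values of 0.599 to 0.837. *IFIT1*, a sensitive marker of interferon signaling, was at 2.48 and 2.07 CPM in control and at 4.90, 1.26, and 2.08 CPM in knockout pools. The sgMTSS1_1 pool was the highest and the sgMTSS1_2 pool the lowest library. *LIPA* lies on the opposite strand of these 3 genes.

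*ISG15* encodes a ubiquitin-like protein that is joined to other proteins. It was at 9.62 and 26.1 CPM in the control pools and at 32.1, 14.9, and 15.4 CPM in the knockout pools. The control pools thus spanned 2 of the 3 knockout pools, and the log2-fold change was 0.22 ± 0.50 (adjusted p = 0.831). Its ligase *HERC5* had a log2-fold change of 0.55 (adjusted p = 0.472). *USP18*, which removes ISG15 and damps the type I receptor, was at 2.48 and 7.995 CPM in control and at 2.32, 2.51, and 2.77 CPM in knockout pools, with a log2-fold change of −1.05 ± 0.57 (adjusted p = 0.302). Control pool 1 lay among the knockout pools, so that this value rests on control pool 2, without which it was 0.05.

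Of the other antiviral effectors, *SP100*, a protein of nuclear bodies, had the lowest ratio of highest to lowest library among the tested genes. It was at 56.5 and 44.7 CPM in control and at 60.0, 54.4, and 48.6 CPM in knockout pools (log2-fold change 0.10 ± 0.29, adjusted p = 0.872). *TRIM22* had a log2-fold change of −0.35 and ranged from 1.04 to 4.90 CPM among the knockout pools. *IFI6*, *IFI35*, *IFI44*, and *PARP9* had log2-fold changes of 0.00, 0.14, 0.33, and −0.01, none with an adjusted p below 0.787. *LINC02574* overlaps *IFI6* on the same strand and shares 66.5% of the 50-base stretches at its 3′ end.

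The 10 genes removed for low counts are given by their counts and were not part of the main test. With edgeR run without the filter, 0 of the 10 were called, beside 5.03% of all genes. An unadjusted p below 0.05 was reached by 1, *XAF1*, beside 4352 of all 27328 genes. For *MX1*, one of the strongest interferon targets in most cells, 0 and 2 reads were counted with sgCtrl and 1 in each knockout pool. *OASL* had 0 and 1 counts in control and 4, 2, and 1 in knockout pools. *OAS1*, which makes the activator of RNase L, had 0 and 4 counts in control and 5, 3, and 0 counts in knockout pools. *OAS3* had 3 and 6 counts in control and 13, 14, and 7 counts in knockout pools. At these depths, 3 counts correspond to 0.387 to 0.931 CPM, and the 95% exact interval of the knockout to control ratio included 1 for each of these 4 genes.

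*RSAD2* (viperin) had 4 and 8 counts in control and 6, 2, and 4 counts in the deeper knockout pools. *XAF1*, whose protein counters an inhibitor of apoptosis, had 3 and 4 counts in control and 0, 1, and 1 counts in knockout pools. In CPM, these 2 of the 10 removed genes had all knockout pools below both control pools. The share was 19.2% over all tested genes, which passed the filter, and was not computed over the genes it removed. The knockout to control ratio was 0.345 for *RSAD2* (95% exact interval 0.142 to 0.841) and 0.0987 for *XAF1* (0.01001 to 0.518), where the intervals cover counting error only.

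*IFI27* had 3 and 1 counts in control and 26, 3, and 4 counts in the knockout pools. *IFI44L* had 1 and 2 counts in control and 21, 3, and 6 counts, *ISG20* had 5 and 2 and 24, 9, and 3 counts, and *IFIT5* had 4 and 1 and 11, 3, and 3 counts in the same order. In each of these 4 genes the sgMTSS1_1 pool had the most counts and the highest CPM, and the groups overlapped in CPM. The knockout to control ratio was 2.85 for *IFI27* (95% exact interval 1.01 to 11.1) and 3.45 for *IFI44L* (1.07 to 17.7), again for counting error only, and the intervals of *ISG20* and *IFIT5* included 1.

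The sgMTSS1_1 pool stood apart in the interferon-stimulated genes more often than in other genes. It was the highest of the 5 libraries in 13 of the 23 tested genes (56.5%), beside 25.04% of all tested genes. In the 73 tested genes of the other pathway lists below, this pool was the highest in 22 (30.1%). In the list of 43 further interferon-induced genes it was the highest in 16 (37.2%). It was above the other 2 knockout pools in 15 of the 23 (65.2%), beside 38.2% of all tested genes. The median log2 ratio of the sgMTSS1_1 pool to the mean of the other knockout pools, with 0.5 CPM added, was 0.39 for the 23 genes and −0.03 for all tested genes. Without this pool, 21 of the genes passed the filter, and their median log2-fold change was −0.21, beside −0.06 over all tested genes. The sgMTSS1_1 library was the deepest and had the highest share of counts in ribosomal protein genes, 16.5% beside 7.09% to 12.8% in the others. Their part in this pattern was not tested.

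**Figure D4:**
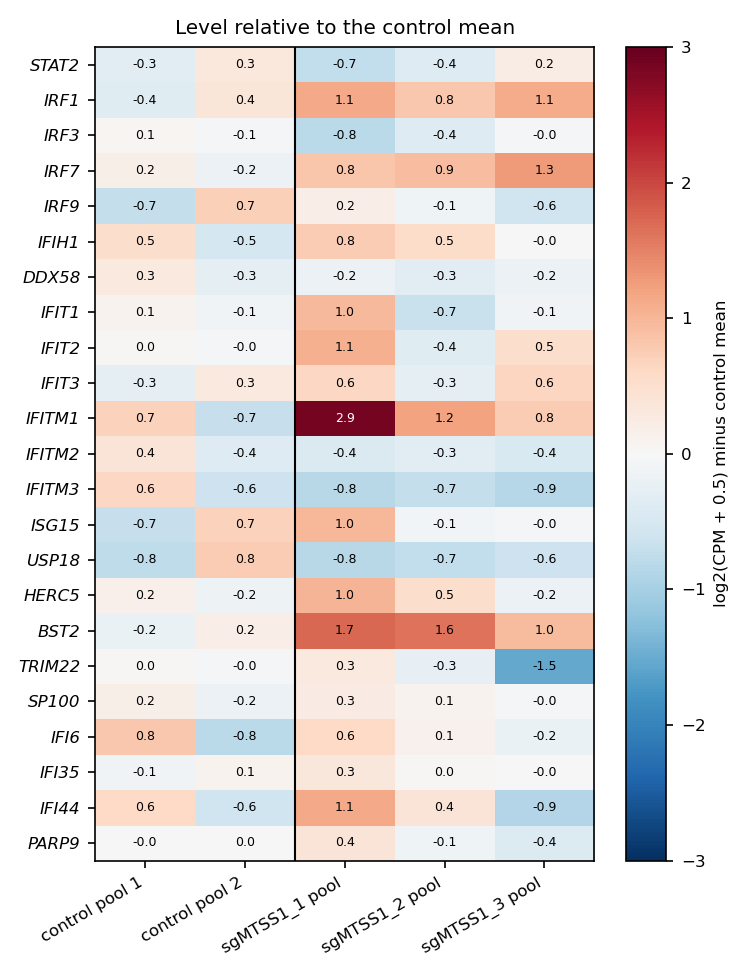
Level of each tested gene in each library as log2(CPM + 0.5) minus the mean of the control pools, printed in each cell and shown by color from −3 (blue) to 3 (red). The column of the sgMTSS1_1 pool holds positive values for most genes, while *IRF1*, *IRF7*, *IFITM1*, and *BST2* are positive in all 3 knockout pools and *IRF3*, *DDX58*, *IFITM2*, *IFITM3*, and *USP18* are negative in all 3.

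The promoter cores were set beside the fold changes. Of the 18 genes with an ISRE core, 11 were tested, 9 had a positive log2-fold change, and the median was 0.33. Over all tested genes, 6952 of 14391 had a positive value. Among the 9, *IFI6* was at 0.00010 and changed sign under 5 alternatives. *ISG15*, *IFI44*, and *IFIH1* went as low as −0.31, −0.26, and −0.017 with 1 library left out. Without the sgMTSS1_1 pool, the median of the listed genes tested was −0.21, and it was not split by core. Of the 8 genes with a window and no ISRE core, 6 were tested, 3 had a positive log2-fold change, and the median was −0.09. *BST2* and *IFITM1* were the tested genes with both cores, at 1.46 and 2.01. *STAT2*, *DDX58*, and *SP100*, with neither, were at −0.30, −0.27, and 0.10. *IFITM3* carries 2 ISRE cores in the sequence shown and had a log2-fold change of −0.93. The tested genes with a GAS core alone were *IRF1*, *IRF9*, and *IFI35*, at 1.01, −0.35, and 0.14. The groups are small and are given as a description.

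The genes around the interferon-stimulated genes in the pathway were taken from 5 further lists. *IFI16*, *IRF2*, *ADAR*, *EIF2AK2*, and *ZC3HAV1* stand in more than 1 of these lists and are counted in each. Of the ligands, 1 of 21 was found, *IFNK*, and it did not pass the filter on low counts; the others were not analysed here. Of the 73 tested genes in the other 4 lists, each counted 1 time here, 4 were called higher and 2 lower (8.22%, beside 5.18% of all tested genes). The median log2-fold change of the 73 was 0.09. After thinning to the smallest library, 2 of 70 tested pathway genes were called (2.86%, beside 3.84% of all tested genes). With at least 10 counts required in every library, 4 of 62 were called (6.45%, beside 5.60%). The calls among the 73 genes changed when 1 library was left out. Without the sgMTSS1_1 pool, 70 of them were tested and 13 reached an unadjusted p below 0.05, beside 2422 of all 13358 tested genes. There edgeR called 0 of the 70, beside 0.831% of all genes. Without the sgMTSS1_2 pool it called 1 (*IL10RB*), beside 2.59% of all genes, and without the sgMTSS1_3 pool 1 (*PSMB8*), beside 1.44%. Without control pool 2 it called 3 (*SHISA5*, *TICAM1*, and *TRIM28*), beside 5.04%. Without control pool 1 it called 9, beside 8.73%, which were *ETV6*, *IFNGR2*, *PIAS4*, *TAPBP*, and the called genes other than *PARP10*.

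Of 10 tested receptor and JAK-STAT genes, 1 was called, beside 5.18% of all tested genes, and it was lower. *IL10RB*, a chain shared by the interleukin-10 and interferon lambda receptors, fell by 2.77 on the log2 scale (SE 0.58, adjusted p = 0.0294). It was at 4.65 and 6.51 CPM in control and at 0.516, 1.26, and 0.692 CPM in knockout pools. These levels rest on 15 and 22 counts in control and 4, 7, and 4 in knockout pools. The gene thus passed the filter on low counts through the control pools alone. After thinning to the smallest library, 0 of the 10 genes were called, beside 3.84% of all tested genes. Of the receptor genes near *IL10RB* on chromosome 21, none was called by the main test. *IFNAR2*, the nearest, had overlapping groups and a log2-fold change of −0.15 (adjusted p = 0.875). *IFNAR1* was at 76.6 and 65.1 CPM in control and at 108, 120, and 137 CPM in knockout pools, or a log2-fold change of 0.77 (adjusted p = 0.149). *IFNGR2* was at 14.9 and 5.03 CPM and at 36.4, 28.7, and 37.9 CPM, a log2-fold change of 1.78 (adjusted p = 0.0539, and called by DESeq2 and limma-voom). *JAK1*, the kinase common to both receptor types, was at 254 and 185 CPM in control and at 119, 158, and 131 CPM in knockout pools (log2-fold change −0.69, adjusted p = 0.200).

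Of 13 tested sensors and adaptors, 1 was called, beside 5.18% of all tested genes, and it was higher. *TICAM1* (TRIF), the adaptor of TLR3, had 3 counts in the control pools together and 116 in the knockout pools. The ratio was 13.4 (95% exact interval 4.46 to 65.7, counting error only, adjusted p = 0.0341). *DHX58* (LGP2) had a log2-fold change of 1.54 (adjusted p = 0.182). Both genes passed the filter on low counts through the knockout pools alone, so that their p-values are no separate support for a rise. With at least 10 counts required in every library, 0 of 10 tested genes of this list were called, beside 5.60% of all tested genes. *STING1* and the kinase *TBK1*, which act after DNA sensing, were at −0.81 and −0.50 (adjusted p = 0.128 and 0.363), with all knockout pools below both control pools.

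Of 12 tested negative regulators, 0 were called by edgeR, DESeq2, or limma-voom, beside 5.18%, 9.43%, and 4.41% of all tested genes. An unadjusted p below 0.05 in edgeR was reached by 3, beside 23.3% of all tested genes. Without control pool 1, edgeR called 2 (*ETV6* and *PIAS4*), and without control pool 2 it called 1 (*TRIM28*). *SOCS1*, which blocks JAK kinases, had 3 counts in control and 43 in knockout pools, a ratio of 4.95 (1.59 to 24.95, adjusted p = 0.220). *SOCS1* also passed the filter on low counts through the knockout pools alone. *PIAS4*, *IRF2*, and *ETV6* had log2-fold changes of 1.07, −0.63, and −0.97, with no overlap between the groups and adjusted p-values of 0.143, 0.261, and 0.118.

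Of 43 tested further interferon-induced genes, 3 were called higher and 1 lower, beside 4.17% and 1.01% of all tested genes. *PSMB8*, a subunit of the immunoproteasome, and *TAP2*, a peptide transporter, lie next to each other in the MHC region and rose by 2.37 and 2.38 on the log2 scale (adjusted p = 0.0364 for both). *PSMB8* was at 16.1 and 8.59 CPM in control and at 107, 46.3, and 38.4 CPM in knockout pools, again with the sgMTSS1_1 pool on top. *SHISA5* rose by 1.47 on the log2 scale (adjusted p = 0.0259), from 69.8 and 53.6 to 168, 168, and 178 CPM. *PARP10* fell by 1.79 (adjusted p = 0.0400). *GRINA* lies opposite *PARP10*, and *PSMB9* and *PSMB8-AS1* lie opposite *PSMB8*. *UBE2L6*, the conjugating enzyme for ISG15, was at −0.87 (adjusted p = 0.108).

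**Figure D5:**
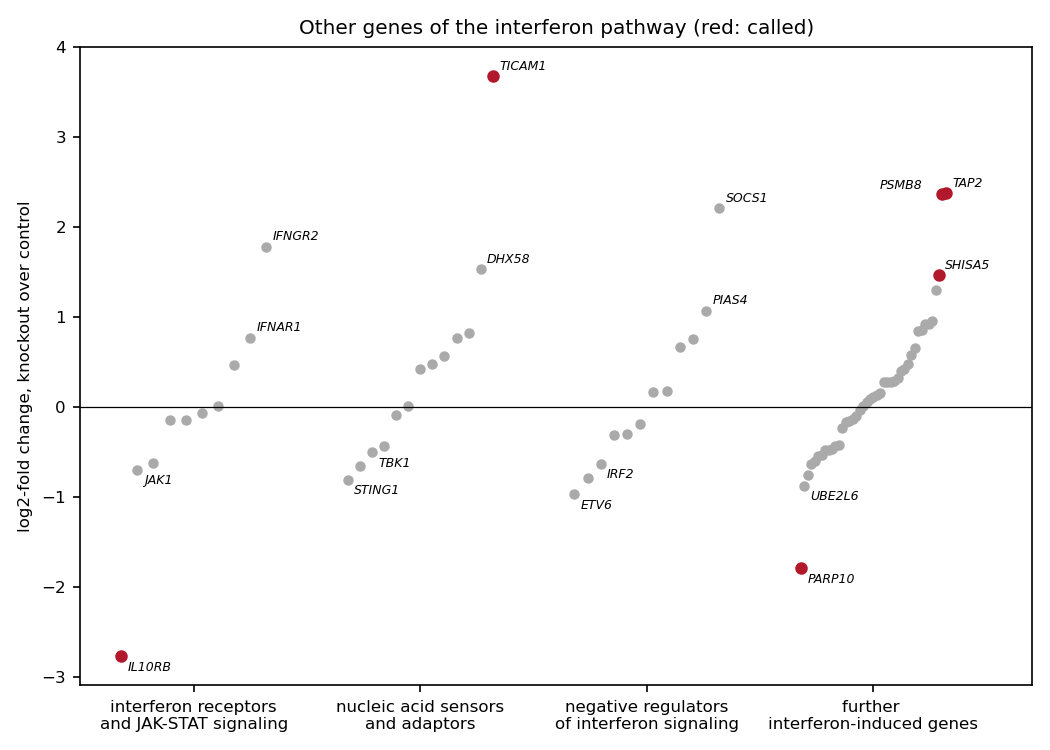
Log2-fold change between knockout and control pools for the tested genes of 4 further lists, sorted within each list, with called genes in red. Each gene has 1 point in every list that holds it, and *IFI16*, *IRF2*, *ADAR*, *EIF2AK2*, and *ZC3HAV1* are in more than 1 list. Of the 73 genes, 37 lie between −0.5 and 0.5, and the called genes are *IL10RB*, *TICAM1*, *PSMB8*, *TAP2*, *SHISA5*, and *PARP10*.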

How the data were processed

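QuantSeq 3′ RNA-seq libraries of TF-1 pools were trimmed and aligned by the authors to GRCh38 with HISAT2 2.1.0, and multi-mapping reads were removed with SAMtools 1.10. The authors deposited whole-number counts per Ensembl gene without normalization. The counting program, its use of strand, and the annotation release are not given in the sources used here. Libraries were grouped by their labels. The sgCtrl pool 3 and the sgMTSS1_4 pool of the study were not analysed here. The study had excluded both by an outlier test on expression within each group.

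Counts were analysed with edgeR 4.0.16 in R 4.3.3: filterByExpr (minimum count 10, 14391 of 27328 genes kept), TMM, and the quasi-likelihood test with the condition alone and Benjamini-Hochberg adjustment. The common biological coefficient of variation was 32.2%. Gene names and positions come from GENCODE release 44, promoters from RefSeq. Every listed gene is accounted for, with values in every library for those called, not overlapping, at an unadjusted p below 0.05, or among the 6 highest. Pathway genes named are those called and, per list, the 2 largest rises and falls without overlap. Alternatives were DESeq2 1.42.0, limma-voom (limma 3.58.1), other size factors and filters, thinning, a replicate block, and each library left out. The genes and lists were chosen with earlier results of these data known. P-values measure the spread between the pools that remained after this exclusion of outlying pools by the study, and intervals cover counting error only.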

Additional observations from a re-analysis of the deposited data

How the results depend on the processing

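The call of *BST2* depended on the processing. Its log2-fold change was 1.44 with RLE size factors, 1.32 with library size alone, and 1.43 after thinning to the smallest library, none of them called, and 1.28 to 1.70 with 1 library left out in turn, where the call held only without control pool 2. The number of interferon-stimulated genes called was 0 under these 3 settings and 0 to 2 with 1 library left out; the second gene was *IFITM3*. The number of other pathway genes called was 2 after thinning and 0 to 9 with 1 library left out. Over all genes, 1357 were called by DESeq2, 1374 without a filter, 480 after thinning, and 111 to 1349 with 1 library left out, the fewest without the sgMTSS1_1 pool and the most without control pool 1. Scaling by library size shifted the median over all genes from −0.03 to −0.17 on the log2 scale and that of the interferon-stimulated genes from 0.14 to −0.0010.

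The replicate block, which uses the pool number 1 to 3, called 2 interferon-stimulated genes (*BST2* and *IFITM1*) and 1094 genes in all. The differences between pools 1 and 2 correlated across genes with an r of 0.17 between the groups, and nothing in the labels says that equal numbers were handled together, so that the numbers do not pair the samples.

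Of the 23 tested genes, 10 kept their direction under every alternative run. Values that changed sign were those of *IFI6* (−0.0044 by DESeq2, −0.0027 with RLE, −0.20 with library size alone), *SP100* (−0.052) and *IFI35* (−0.0010) with library size alone, *PARP9* (0.14 without a filter, 0.064 with 10 counts in every library, 0.11 after thinning, 0.14 with the replicate block), *IRF9* (0.28 after thinning), and *TRIM22* (0.022 with the replicate block). With 1 library left out, sign changes occurred for *DDX58* (−0.53 to 0.089), *IFITM2* (−0.77 to 0.00082), *ISG15* (−0.31 to 1.14), *STAT2* (−0.59 to 0.093), *IRF9* (−0.93 to 0.74), *IFIH1* (−0.017 to 1.03), *USP18* (−1.64 to 0.051), *SP100* (−0.030 to 0.29), *IFI6* (−0.58 to 1.07), *IFI44* (−0.26 to 1.096), *PARP9* (−0.29 to 0.20), *IFI35* (−0.0065 to 0.29), and *TRIM22* (−0.89 to 0.092). The cause was not tested. With a gap of 1 to 3 bases, 84.6% of the 26 windows held an ISRE core, beside 10.5% of all genes.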
